A study of Drosophila melanogaster with 4 samples.

Results

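The cytoplasmic ribosome and the factors that start and extend translation were represented on the arrays by 53 gene symbols, of 144 that RefSeq lists for Drosophila melanogaster under the same names. The genes were chosen by symbol: ribosomal proteins of the large subunit (RpL) and small subunit (RpS), initiation factors (eIF) and elongation factors (eEF). Of the 53, 28 had at least 1 spot with a value in each distinct set of values, and these 28 genes (66 spots) are the members described here. They comprised 14 ribosomal proteins and 14 initiation and elongation factors, out of 2023 named genes and 3995 units (named genes plus pairs of unnamed duplicate spots) measured to the same standard. RNA came from heads of male flies of the wild-type Oregon-R strain that had not mated. At an age of 3 to 4 days they were put on food holding 3.33 mg/ml strychnine, for 7 days. Strychnine is a plant alkaloid that blocks the vertebrate glycine receptor. Their controls were males of the same strain and age range kept on normal food over the same days. Each of 4 two-colour cDNA arrays set pooled heads of treated flies against pooled heads of control flies from the same parallel set, and vials held 30 flies at the start. The question was how head transcripts responded to strychnine.

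Ribosomes are built from ribosomal RNA and a large set of ribosomal proteins, which cells make in near equal amounts because most are needed in 1 copy per ribosome. Initiation factors bring the small subunit to the messenger RNA cap and the start codon: the eIF4 group binds the cap and unwinds the message, eIF3 is a scaffold on the small subunit, and eIF2B recharges eIF2 with GTP and is a control point under stress. Elongation factors then deliver charged tRNAs and move the ribosome along. In neurons, protein synthesis near synapses is needed for long-lasting changes in synaptic strength.

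RNA from treated heads was labelled with Cy5 for replicates 1 and 2 and with Cy3 for the exchanged pair, replicates 3 and 4. Between 7647 and 9725 of 27648 spots held a log2 ratio. Replicates 1 and 3 held identical values at 7643 of 7643 shared spots, a difference below any sampling noise, and they entered as 1 sample, called the shared set. That left 3 sets: the shared set, replicate 2 and replicate 4. The sources do not say whether a positive value means more RNA from treated heads or more Cy5. A negative value is therefore called negative here and not a decrease after strychnine. Values are log2 ratios with each set's median over the 3995 units subtracted. Ratios carry no level of expression, and in head RNA fewer cells of a type cannot be told apart from less RNA per cell. None of 3 photoreceptor marker genes on the array had values in all 3 sets, and the markers of other tissues that did are given with the results.

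Many translation genes on the array gave usable values. Values in all 3 sets were present for 60.9% of the ribosomal protein genes on the array (14 of 23) and 46.7% of the initiation and elongation factor genes (14 of 30), against 29.8% of all named genes (2023 of 6793). The shares were not tested against each other. Spots had to pass the authors' filters on brightness, saturation and signal to noise, and which filter removed a spot is not known. Among the 25 genes outside the measured 28, 20 had no value in any set. They included RpLP1, a stalk protein of the large subunit, RpS20, eIF5B, which joins the subunits, eIF6, which keeps them apart, and RpS5b and RpS19b, paralogues best known from the germ line. The other 5 had values in part of the sets. RpL17 was at 0.27 in the shared set and 0.19 on replicate 4, RpL24-like at -0.56 in the shared set and -1.36 on replicate 2, and eEF1alpha2, a tRNA-delivering factor, at 0.18 and -0.70 on those same 2. For eIF3i the values were -1.07 in the shared set and 0.13 on replicate 2, and for eIF3f2 there was only 1.05 on replicate 4. The 2 spots behind that value of eIF3f2 differed, at 1.68 and 0.41. These 5 did not move in 1 direction.

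Read as 1 module, the 28 genes leaned to the negative side but hardly any stood apart from 0. The mean of the 3 sets was negative for 21 of 28 genes, where 52.3% of all units and 55.7% of named genes had a negative mean. Their median was -0.24, against -0.031 for all units and -0.071 for named genes. Throughout the sets, 8 genes stayed negative (28.6%) and 1 stayed positive. Of all units 27.1% stayed negative and 28.2% positive, and of named genes 28.9% and 25.5%. Without centring, 19 of 28 genes stayed negative (67.9%), beside 49.3% of all units. In the limma fit of the mean against 0 over all units, 1 of 28 genes passed an adjusted p (Benjamini-Hochberg) of 0.05, where 9.94% of all units did (8.04% positive and 1.9% negative). At an unadjusted p under 0.05 there were 3 of 28, against 1375 of 3995 units. As a description of size, 10.7% of the 28 had a mean beyond 0.5 in either direction, against 38.1% of all units and 33.9% of named genes.

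Marker genes of head and other tissues were read as well, and 4 of them, of gut, testis and fat body, passed the threshold on the positive side in the same fit. They were 2 of 3 measured gut genes, 1 of 3 of testis and accessory gland and 1 of 4 of head fat body. Of all units 8.04% passed on that side. Of the gut markers, the protease genes yip7 and Jon65Aiii averaged 1.55 and 1.34 (limma adjusted p = 0.0394 for both) and Jon66Cii -0.59. The testis gene Mst77F averaged 0.85 (limma adjusted p = 0.0456), beside -0.57 for Mst85C and 0.44 for the accessory gland gene Acp32CD. Of 4 head fat body genes, Fbp2 averaged 0.76 (limma adjusted p = 0.0491), and Yp2, Lsp2 and apolpp averaged -1.63, -0.18 and -0.13. The sets disagreed for these last 3. In the shared set, replicate 2 and replicate 4, Yp2 read -0.27, -0.48 and -4.15. Lsp2 read -0.48, -0.49 and 0.44, and apolpp 0.0625, 1.13 and -1.58. The glial gene Gs2 (-0.73), the flight muscle actin gene Act88F (-0.70) and the neuronal gene nSyb (-0.35) did not pass. Corrected for position, yip7 was at 0.87, Jon65Aiii at 0.69, Mst77F at 1.23, Fbp2 at 0.39, Gs2 at -0.33 and Act88F at 0.17, and none passed. The part of these tissues in the values of the translation genes was not tested.

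**Figure D1:**
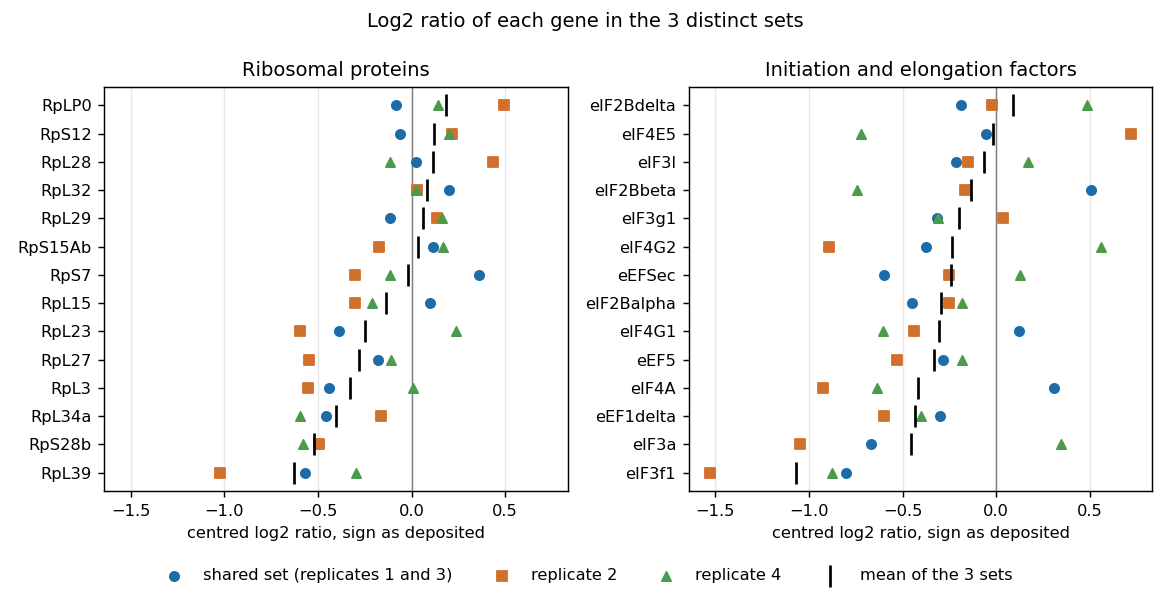
Centred log2 ratio (x axis, sign as deposited) of each of the 14 ribosomal protein genes and the 14 initiation and elongation factor genes in the shared set (circles), replicate 2 (squares) and replicate 4 (triangles), ordered by the mean of the 3 sets (bars). The means of 13 of 14 factors lie below 0, against 8 of 14 ribosomal proteins, and eIF3f1 lies lowest at -1.07.

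Ribosomal proteins lay slightly above the factors in every set. The median of the 14 ribosomal proteins was -0.098, -0.24 and -0.050 in the shared set, replicate 2 and replicate 4, and that of the 14 factors was -0.29, -0.35 and -0.25. The difference, ribosomal proteins minus factors, was 0.20, 0.11 and 0.20 in that order, a mean of 0.17 ± 0.051 (SD, n = 3 sets), or 1.12-fold. Means were negative for 8 of 14 ribosomal proteins and for 13 of 14 factors. No test was made of this difference, since it is a score over chosen genes in 3 sets. Corrected for slide position, the difference was 0.028, 0.15 and 0.044 in the 3 sets, a mean of 0.073 ± 0.065 (SD, n = 3 sets), and both families then had 10 of 14 negative means.

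The families differed in how closely the sets agreed. The SD of a gene over the 3 sets had a median of 0.23 for ribosomal proteins (range 0.051 to 0.44) and 0.37 for factors (range 0.14 to 0.74), with 0.34 for all units. After the position correction these medians were 0.14, 0.27 and 0.24. Duplicate spots of the 33 clone pairs differed by a median of 0.12 to 0.14 in the 3 sets. Neither the ordering of families nor these spreads was tested.

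Large-subunit proteins ran from RpL39 at the bottom to RpLP0 at the top. RpL39, a small protein that lines the exit tunnel, had log2 ratios of -0.57 (shared set), -1.02 (replicate 2) and -0.30 (replicate 4). Its mean was -0.63 ± 0.37 (SD, n = 3 sets) with a limma adjusted p of 0.0929. It was negative in every set and had the lowest mean of any ribosomal protein. It was read by 2 clone pairs in different blocks of the slide, with means of -0.48 and -0.78, so both clones were negative. The blocks holding them had median log2 ratios, averaged over the sets, of -0.29 and -0.42. After the position correction RpL39 was at -0.047, 0.046 and -0.073 in the 3 sets, a mean of -0.024 (adjusted p = 0.923).

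RpL34a, 1 of a pair of genes for that protein, read -0.46, -0.17 and -0.60 in the shared set, replicate 2 and replicate 4 (mean -0.41, adjusted p = 0.191). RpL3, next to the peptidyl transferase centre, read -0.44, -0.55 and 0.0085 (mean -0.33). RpL27 was at -0.18, -0.55 and -0.11, and RpL23 at -0.39, -0.60 and 0.24. Of these 4, RpL34a and RpL27 were negative throughout before the position correction, and replicate 2 was the lowest set for RpL3, RpL27 and RpL23. RpL15 was at 0.100, -0.30 and -0.21, around 0. RpL15 and RpL23 were printed in the same block, whose medians were 0.37, 0.38 and 0.32, so both lay below their surroundings. The direction of RpL34a turned with the position correction, which gave -0.074, 0.50 and 0.11 (mean 0.18, adjusted p = 0.574), while RpL27 stayed negative in each set (mean -0.20). Position-corrected means were -0.47 for RpL15 (adjusted p = 0.162) and -0.49 for RpL23 (adjusted p = 0.24), and neither passed.

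RpL32, known to fly biologists as rp49 and widely used as a reference transcript, read 0.20 in the shared set and 0.026 and 0.023 on replicates 2 and 4. Its mean was 0.083 ± 0.10 (SD, n = 3 sets; limma adjusted p = 0.78), the 1 member that was positive in all 3 sets, and with values close to 0 on both single arrays. RpL32 occupied 20 spots on the array, of which 6 (3 clone pairs) had values in all 3 sets. Those 3 pairs, in 3 blocks, had means of 0.017, 0.17 and 0.068 but disagreed within a set: on replicate 4 they read 0.033, -0.30 and 0.34. Another pair had a value on replicate 4 alone, at 0.82. The near-zero mean of the gene was thus an average over clones that, on replicate 4, differed by more than their duplicate spots did. After the position correction it was 0.35 ± 0.17 (SD, n = 3 sets; adjusted p = 0.234).

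RpL28 and RpL29 were close to 0 on average, at 0.11 (adjusted p = 0.724) and 0.061 (adjusted p = 0.844). In the shared set, replicate 2 and replicate 4, RpL28 read 0.024, 0.43 and -0.12 and RpL29 read -0.12, 0.14 and 0.16. RpLP0, the base of the acidic stalk that recruits translation factors, had the highest mean of the family, 0.18 ± 0.29 (SD, n = 3 sets; adjusted p = 0.56), from -0.082, 0.49 and 0.14. All 3 changed sign between sets. The position-corrected means were 0.098 for RpL28, 0.21 for RpL29 and -0.12 for RpLP0.

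Before the position correction the 4 small-subunit proteins showed no common direction, with a median of 0.008. RpS28b, whose gene has a paralogue (RpS28a) outside the measured set, was the most even gene of all 28: it read -0.49, -0.49 and -0.58, a mean of -0.52 ± 0.051 (SD, n = 3 sets). It was negative in each set, yet its adjusted p was 0.101, with a limma SE of 0.19 that draws on the spread of all units. That evenness did not persist after the position correction, which gave -0.30, -0.15 and 0.28. RpS7 was at 0.36, -0.30 and -0.12 (mean -0.020), and RpS12 at -0.065, 0.22 and 0.20 (mean 0.12). RpS15Ab, of a closely related gene pair with RpS15Aa, was at 0.12, -0.18 and 0.17. Its 2 clone pairs had means of -0.15 and 0.22, on either side of 0. After the position correction all 4 small-subunit means were negative, from -0.18 (RpS7) to -0.011 (RpS12), with a median of -0.057. RpS7 was then negative in each set, at -0.13, -0.20 and -0.21. None of the 4 passed the threshold. Spotted cDNAs can bind the transcripts of close paralogues, and no sequences were compared here. Which copy the values of RpS28b, RpS15Ab and RpL34a report is therefore uncertain.

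Among the initiation factors, eIF3f1 was the 1 gene past the threshold. It encodes a core subunit of the eIF3 scaffold. Its log2 ratios were -0.80 (shared set), -1.53 (replicate 2) and -0.88 (replicate 4). The mean was -1.07 ± 0.40 (SD, n = 3 sets), 2.1-fold below the array median, with a limma adjusted p of 0.0433. It was negative in 3 of 3 sets and sat in the lowest 1.18% of all units. Its duplicate spots read alike: -1.56 and -1.50 on replicate 2. Its block was also low, with medians of -0.32, -1.0005 and -0.87 in the 3 sets. Averaged over the sets this block median was -0.73, the lowest of all blocks. The gene lay below its block in the shared set and on replicate 2. On replicate 4 it was level with its block, at -0.8775 against -0.874. Its duplicate spots there read -0.81 and -0.95, on either side of the block median. After the position correction eIF3f1 was at -0.39, -0.20 and -0.0050, averaging -0.20 ± 0.19 (SD, n = 3 sets; adjusted p = 0.474). The call was also absent without replicate 2 (mean -0.84, adjusted p = 0.163), without replicate 4 (-1.16, adjusted p = 0.0547) and without the shared set (-1.20, adjusted p = 0.106).

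The other eIF3 subunits gave other values. eIF3a, the largest subunit, was at -0.67 in the shared set and -1.05 on replicate 2 but at 0.35 on replicate 4 (mean -0.46 ± 0.72, SD, n = 3 sets; adjusted p = 0.299). eIF3g1, a subunit with an RNA-binding domain, was at -0.32, 0.034 and -0.31, and eIF3l at -0.21, -0.15 and 0.17. Means of the 4 subunits were all negative, from -1.07 to -0.064, with a median of -0.33. Of the 4 measured subunits eIF3f1 alone was negative in each set before the position correction. After it, eIF3l was negative in each set as well, at -0.0011, -0.084 and -0.14. The corrected means were -0.37 for eIF3a, -0.20 for eIF3f1, -0.15 for eIF3g1 and -0.076 for eIF3l. The differences between subunits were not tested.

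The 3 measured subunits of eIF2B spread around 0. eIF2Balpha, a regulatory subunit, was negative throughout at -0.45, -0.25 and -0.18 (mean -0.29; adjusted p = 0.311). Its block had the medians -0.48, -1.04 and -0.57, and after the position correction it was positive throughout, at 0.12, 0.82 and 0.074. eIF2Bbeta, also regulatory, covered a wide range, from 0.51 (shared set) over -0.17 (replicate 2) to -0.74 (replicate 4). eIF2Bdelta, the remaining regulatory subunit, was at -0.19, -0.024 and 0.48, the only factor with a positive mean (0.091). The 3 subunits were all negative on replicate 2 and differed in sign from each other in the shared set and on replicate 4. With the position correction the means were 0.34, 0.097 and -0.14, each of the opposite sign.

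Among cap-binding and unwinding factors, eIF4A, the helicase, read 0.31 in the shared set but -0.93 and -0.64 on replicates 2 and 4 (mean -0.42 ± 0.65, SD, n = 3 sets; adjusted p = 0.311). eIF4G1, the scaffold that bridges cap and ribosome, was at 0.12, -0.44 and -0.60 (mean -0.31). Both were positive in the shared set and negative on both single arrays. The 2 clone pairs of eIF4G1 read 0.21 and -1.08 on replicate 2, and -0.64 and -0.57 on replicate 4, so they disagreed by more than 1 log2 unit on the first of these arrays. eIF4G2, a relative needed for meiosis in the male germ line, was at -0.38, -0.89 and 0.56, and eIF4E5, a cap-binding protein with a role in spermatogenesis, at -0.057, 0.72 and -0.72. These last 2 had opposite signs on replicates 2 and 4, and opposite to each other. The block of eIF4A had medians of -0.33, -0.71 and -0.51, and the position correction turned its mean to 0.18 (adjusted p = 0.63) and that of eIF4G2 to 0.042 (adjusted p = 0.884). The means of eIF4G1 (-0.24) and eIF4E5 (-0.13) stayed negative.

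The 3 elongation factors had negative means. eEF1delta, an exchange factor that recharges eEF1alpha with GTP, was at -0.30, -0.60 and -0.40 in the shared set, replicate 2 and replicate 4. This gave -0.44 ± 0.15 (SD, n = 3 sets) with a limma adjusted p of 0.157. eEF5, the fly counterpart of eIF5A, the hypusine-bearing protein that relieves stalled ribosomes, was at -0.28, -0.53 and -0.18 (mean -0.33; adjusted p = 0.265). Both were negative in every set, also after the position correction, which gave means of -0.24 (adjusted p = 0.336) and -0.60 (adjusted p = 0.159). eEF5 lay in a block with positive medians of 0.52, 0.086 and 0.20, and it was below them in all 3 sets. eEFSec, the factor for selenocysteine, was at -0.60, -0.26 and 0.13, and negative in all 3 sets only after the position correction (mean -0.29).

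Position on the slide moved with many of these values. The 33 clone pairs of the members lay in 25 of 48 blocks of spots, and the block medians, averaged over the sets, ranged from -0.73 to 0.36 for these blocks. Over the 33 pairs, the mean log2 ratio and the block median correlated with Pearson's r of 0.507, a description only, since pairs share blocks and arrays and a gene contributes to its own block. The most negative factor and the most negative ribosomal protein both lay in blocks below 0. With the position correction, no member passed the threshold, nor did any of all units (0% called; 823 of 3995 units and 4 of 28 members at an unadjusted p under 0.05, limma). Then 11 members (39.3%) stayed negative throughout the sets and 3 (10.7%) stayed positive, beside 22% and 23.2% of all units. The corrected median was -0.13 over members and -0.025 over all units.

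**Figure D2:**
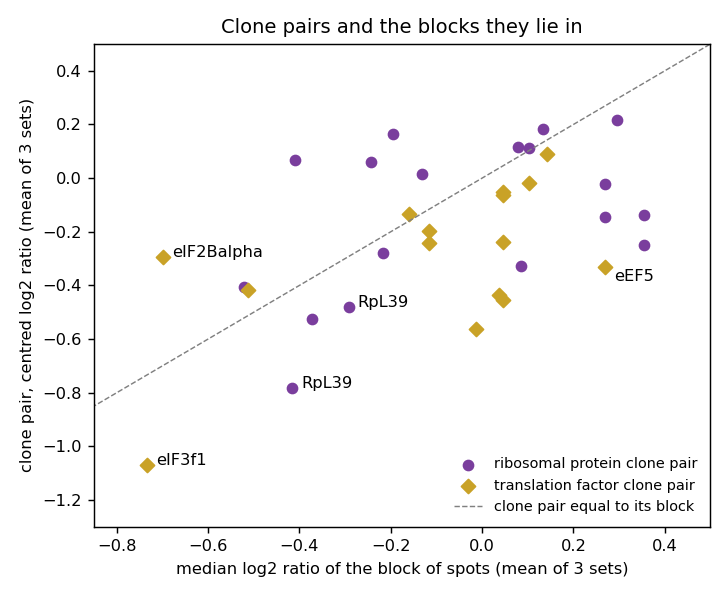
Mean centred log2 ratio of each of the 33 clone pairs (y axis) against the median log2 ratio of the block of spots that holds it (x axis), both averaged over the 3 sets, with ribosomal proteins as circles and factors as diamonds. Points of eIF3f1 and RpL39 lie low with their blocks, while eEF5 lies below a block with a positive median.

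**Figure D3:**
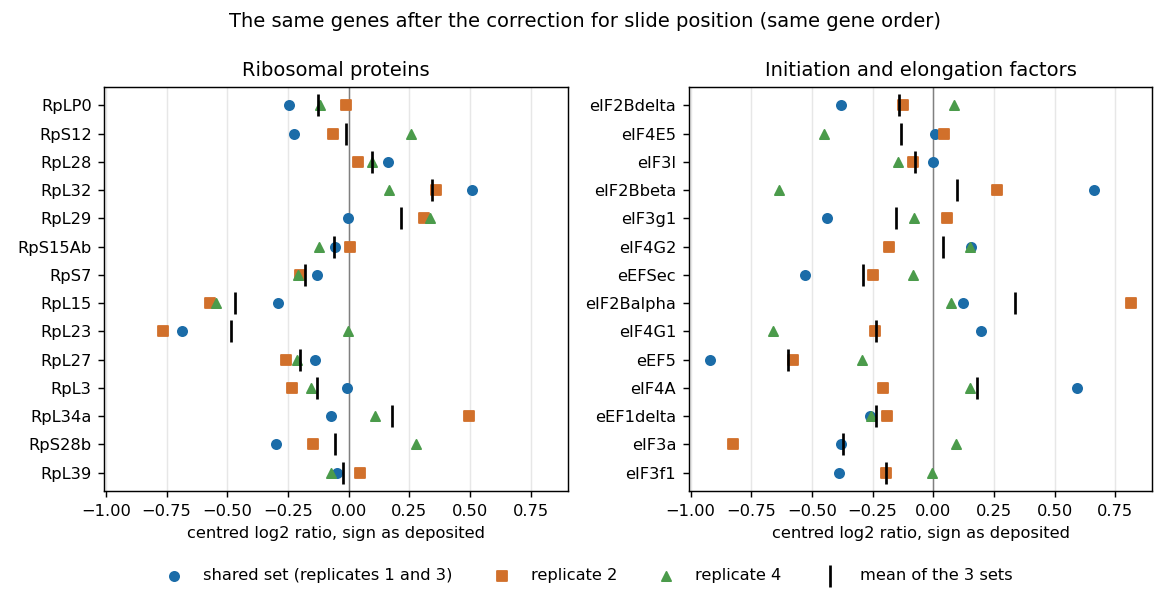
Log2 ratios of the same 28 genes in the 3 sets after block medians and a smooth trend within each block were removed, in the gene order of the uncorrected values. The mean of eIF3f1 is now -0.20 and that of RpL39 -0.024, and eEF5 has the lowest mean, -0.60.

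If the deposited ratios are instead Cy5 over Cy3, the effect of strychnine is the part that changes sign with the dye, which is replicate 2 minus replicate 4 divided by 2. A positive value of this dye contrast then means more RNA from strychnine-treated heads than from control heads. Under this reading 0 of 28 members and 0 of 3995 units passed an adjusted p of 0.05 in limma (0% called), while 3 members and 166 units had an unadjusted p below 0.05. The contrast rested on 1 array of each dye order, with 1 residual degree of freedom. The shared set, labelled with both dyes, was coded 0. On simulated data the fit recovered 1% of changes of 1 on the log2 scale. The lack of calls therefore does not show that these genes were unchanged. The median contrast was -0.030 for ribosomal proteins and -0.15 for factors, with -0.032 for all units. Ribosomal proteins were confined to values between -0.42 (RpL23) and 0.28 (RpL28). Factors reached from -0.73 to 0.72.

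The 3 members with a small unadjusted p were all initiation factors. eIF4E5 had a contrast of 0.72 ± 0.24 (SE), eIF4G2 of -0.73 ± 0.24 and eIF3a of -0.70 ± 0.25 (limma adjusted p = 0.957 for each). eIF4E5 shared a block with RpL28, and the medians of that block on replicates 2 and 4 were 0.60 and -0.21. eIF4G2 and eIF3a shared another, with medians of -0.067 and 0.30. In that same block eIF3l read -0.15 and 0.17 on replicates 2 and 4. A clone pair of eIF4G1 there had the opposite signs, at 0.21 and -0.64. After the position correction the contrasts of eIF4E5, eIF4G2 and eIF3a were 0.25, -0.17 and -0.46. Since eIF4E5 and eIF4G2 are known from the male germ line, the 3 measured testis and accessory gland genes are given beside them: their dye contrasts ran from -0.070 to 0.12, smaller in size than those of both factors. In the mean of the sets the order was the other way, with Mst77F, Mst85C and Acp32CD (0.85, -0.57 and 0.44) larger in size than eIF4E5 and eIF4G2 (-0.019 and -0.24). Their part in these results was not tested. RpL32, the reference transcript, had a contrast of 0.0018 ± 0.24 (SE). This too was an average over clones that disagreed. Its 3 clone pairs read -0.25, 0.35 and -0.02 on replicate 2 and 0.033, -0.30 and 0.34 on replicate 4.

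**Figure D4:**
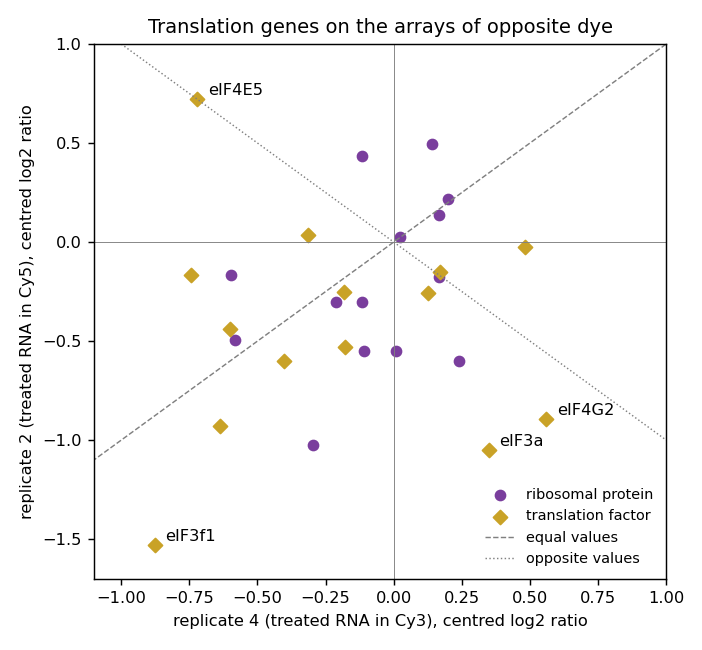
Centred log2 ratio on replicate 2 (y axis, treated RNA in Cy5) against replicate 4 (x axis, treated RNA in Cy3) for the 28 genes, with ribosomal proteins as circles and factors as diamonds. A gene on the dashed line has equal values on both arrays, and 1 on the dotted line has values of opposite sign, as eIF4E5 at 0.72 and -0.72 has.

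Over the 28 genes, the shared set correlated with replicate 2 at a Pearson's r of 0.452 and with replicate 4 at -0.115, and the 2 single arrays correlated at 0.133. Over the 3995 units the same coefficients were 0.632, 0.396 and 0.473. These are descriptions across genes that share arrays, and the difference was not tested.

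Other genes of protein synthesis were sparsely measured, and none of 9 passed the threshold in either fit as described. Under other settings 1 of 4 translation regulators passed in the mean of the sets, on the negative side. This was so with spots beyond 3 left out (limma adjusted p = 0.0424), where 665 of 3973 units passed. It was also so with all 4 columns counted (limma adjusted p = 0.0254), where 1112 of 3995 units did. With genes measured in 2 of the 3 sets also admitted, 1 of 4 release, nascent chain or ribosome-bound factors passed (limma adjusted p = 0.0413). That call was on the positive side. Of all units 555 of 4566 passed there. Of 4 aminoacyl-tRNA synthetase genes on the array, which load amino acids onto tRNAs, IleRS alone had values in all 3 sets: 1.25, 0.70 and 0.27, averaging 0.74 ± 0.49 (SD, n = 3 sets), with a limma adjusted p of 0.081. It was positive in every set, unlike 27 of the 28 members. Of 15 ribosome biogenesis genes 3 were measured, from mbm at -0.47 to nclb at 0.26. Of 10 genes for release factors, nascent chain factors and ribosome-bound proteins 1 was measured, Nacalpha of the nascent polypeptide-associated complex, at -0.35 (adjusted p = 0.267). Translation regulators had 4 measured genes of 9, with a median of -0.38. S6k, the kinase that acts on ribosomal protein S6 downstream of Tor, was the lowest at -0.55, -1.14 and -0.63, averaging -0.77 ± 0.32 (SD, n = 3 sets) with an adjusted p of 0.0585, and Paip2, a repressor that binds poly(A)-binding protein, the highest at -0.15. After the position correction S6k was at -0.24 (adjusted p = 0.412) and IleRS at 0.53 (adjusted p = 0.211).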

How the data were processed

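Per the series' design text, the authors quantified images with GenePix Pro 6.0 and normalized by ratio in Acuity 4.0; spots needed an intensity of at least 100, under 3% saturated pixels, an SNR of 3 or more and a regression R2 of 0.6 or more. For the deposited log2 ratios, the sources used here give no log base (read as 2), centring or direction. Replicates 1 to 4 had medians of -0.121, -0.379, -0.179 and -0.621. Intensities were not used here. The small number of distinct sets, 3, limits the precision. Per the labels, the arrays are biological replicates from pooled heads. The p-values rest on the spread between 3 sets, which limma draws toward the spread of all units (prior degrees of freedom 5.08 for the mean fit).

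Spots with a value on replicates 1, 2 and 4 were averaged by the 1 gene symbol of the platform annotation (15116 spots; 102 had several symbols and 12430 none) or, unnamed, by duplicate pair, and each set was median-centred. All 53 gene symbols matched RefSeq (Release 6) by gene ID. The mean against 0, and a contrast coded 1 on replicate 2, -1 on replicate 4 and 0 on the shared set with a dye term, were fitted over all units with limma 3.58.1 in R 4.3.3, two-sided, Benjamini-Hochberg. For slide position, block medians and a robust loess (span 0.4, blocks of at least 30 values) were subtracted; block geometry was read from spot order. On simulated data of 3995 units the mean fit recovered 27% of changes of 1 and 94% of changes of 2 on the log2 scale, and the contrast 1% and 68%. Members, lists and settings were chosen with earlier results of these data known. Named in full were the extreme members by mean, those past a threshold, those with several clone pairs and paralogues; of other lists, the extremes.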

Additional observations from a re-analysis of the deposited data

How the results depend on the processing

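Each ratio already sets treated against control heads of the same parallel set, so no further block was fitted. The mean against 0 is the paired comparison only if the ratios run the same way, treated against control, on every array. If they are Cy5 over Cy3, the dye contrast takes that place. The 1 call among the 28 genes in the mean of the sets became 0 without centring, with the position correction, with scale normalization and, chosen after seeing the data, without the shared set. It became 2 at an adjusted p of 0.10 (RpL39 added) and 3 with all 4 columns counted (RpL39 and RpS28b added), which counts 1 set of values 2 times. Leaving out 1 replicate gave 0 to 1. Over all units the count of 397 became 0 without centring, with the position correction, with scale normalization and without replicate 2, 1 without the shared set, 207 with named genes only, 254 without replicate 4, 665 without spots beyond 3, 1044 at 0.10 and 1112 with 4 columns. The dye contrast gave 0 members under each alternative that could be fitted; over all units it gave 14 without centring, 1 without replicate 1 and 2 without replicate 3. Without replicate 2 or 4 it had no residual degrees of freedom and was not run. The difference between ribosomal proteins and factors stayed positive, at 0.073 with the position correction and 0.11 to 0.23 with 1 replicate left out. The median over genes stayed negative in each alternative run for ribosomal proteins (-0.45 to -0.014) and for factors (-0.64 to -0.15). The call for eIF3f1 was lost without centring (-1.44, adjusted p = 0.0629) and with scale normalization (-1.04, adjusted p = 0.053). Signs of means changed for genes near 0 and for some farther from it. Without centring, which lowers the median of all units to -0.40, they did for RpL28 (-0.25), RpL29 (-0.31), RpL32 (-0.28), RpLP0 (-0.18), RpS12 (-0.25), RpS15Ab (-0.33) and eIF2Bdelta (-0.28). With the position correction they did for RpL34a (0.18), RpLP0 (-0.12), RpS12 (-0.011), RpS15Ab (-0.059), eIF2Balpha (0.34), eIF2Bbeta (0.097), eIF2Bdelta (-0.14), eIF4A (0.18) and eIF4G2 (0.042). With 1 replicate left out, means ran across 0 for RpL28 (-0.042 to 0.23), RpS15Ab (-0.026 to 0.15), RpS7 (-0.020 to 0.13), eIF2Bbeta (-0.14 to 0.17), eIF2Bdelta (-0.10 to 0.15), eIF3l (-0.18 to 0.027), eIF4E5 (-0.38 to 0.34) and eIF4G2 (-0.63 to 0.097). Signs also changed for RpS15Ab (-0.015) with the median of spots, RpS15Ab (-0.0063) and eIF3l (0.0097) without the shared set, RpS7 (0.091) and eIF2Bbeta (0.042) with 4 columns, and RpS7 (0.025) and eIF4E5 (0.026) with named genes only. Their causes were not tested.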
